A study of Ovis aries with 62 samples.

Results

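The genes described here are KMT2D (ENSOARG00000018975), KDM6B (ENSOARG00000017581), SRCAP (ENSOARG00000007180), ZMIZ1 (ENSOARG00000009814) and ATN1 (ENSOARG00000005156), 5 of the 16011 genes measured in the rumen wall of 62 AUS sheep. KMT2D, KDM6B and SRCAP act on histones directly, while ZMIZ1 and ATN1 are a coactivator and a corepressor of transcription. They were named one by one and were chosen by their measured levels in these same sheep, with their values over blocks, traits and muscle content already known. Which of those values decided the choice is not stated. Block, trait and muscle values of these genes are therefore given as descriptions without a *p*, and no test stands behind their direction.

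Histones carry marks that chromatin enzymes write, remove or read. KMT2D is a methyltransferase that marks enhancers on H3K4, in a complex with a demethylase of the KDM6 family and the coactivator NCOA6. KDM6B removes methyl groups from H3K27, a mark of repressed genes. SRCAP is the ATPase of a remodeler that places the histone variant H2A.Z at promoters. ZMIZ1 is a coactivator related to the PIAS proteins that acts with NOTCH1 in mammals, and ATN1 (atrophin 1) is a corepressor related to RERE. All are known from human and mouse work. In stratified epithelia such as the keratinized lining of the rumen, the KMT2 and KDM6 families are known for their part in differentiation programs.

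The sheep were Merino ewes of about 3 years, daughters of 4 sires, all fed the same lucerne and oat chaff, and block 1 (16 sheep) was set against blocks 2–4 (46 sheep, with 16, 14 and 16 in blocks 2, 3 and 4). A block is a test period of 4 weeks, so block 1 and the time of testing and sampling cannot be told apart. Each sheep gave 1 library of the whole ventral rumen wall, which holds epithelium, connective tissue and smooth muscle, so fewer cells of a type and less RNA per cell cannot be told apart. The libraries held 4208032 to 12130080 assigned reads, with a median of 6812020 in block 1 and 8567270 in blocks 2–4. Of the tissue markers, 15 contractile genes of smooth muscle (of 18 listed) and 10 genes of stratified epithelium (of 15 listed) could be matched to a row. The authors kept only genes above a CPM threshold in all samples, so reads in every library are no check of the tissue. The levels below are log2 CPM, a log2 scale of how large a part of its library a gene takes.

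All 5 genes were highest in block 1, and their medians fell step by step over blocks 1 to 4. KMT2D had 6.41 log2 CPM in the lowest, 7.75 in the median and 8.62 in the highest sheep of block 1, against 5.83, 6.43 and 7.30 in blocks 2–4. SRCAP had 5.84, 7.16 and 7.81 log2 CPM in the lowest, median and highest sheep of block 1, against 5.33, 6.05 and 6.68 in blocks 2–4. ATN1 had 2.90, 4.83 and 6.005 log2 CPM in block 1, against 2.21, 3.46 and 4.79 in blocks 2–4. For each of these genes most sheep of block 1 lay above the median of blocks 2–4, and the ranges overlapped. KDM6B had 2.11, 3.85 and 4.67 log2 CPM in the lowest, median and highest sheep of block 1, against 0.78, 2.27 and 3.30 in blocks 2–4. ZMIZ1 had 2.52, 3.96 and 4.89 log2 CPM in block 1, against 0.59, 2.64 and 3.56 in blocks 2–4. These last were the thinly covered genes, with 11 to 170 reads per library for KDM6B and 12 to 198 for ZMIZ1, while KMT2D had 255 to 2632 reads, SRCAP 201 to 1501 and ATN1 20 to 429.

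**Figure D1:**
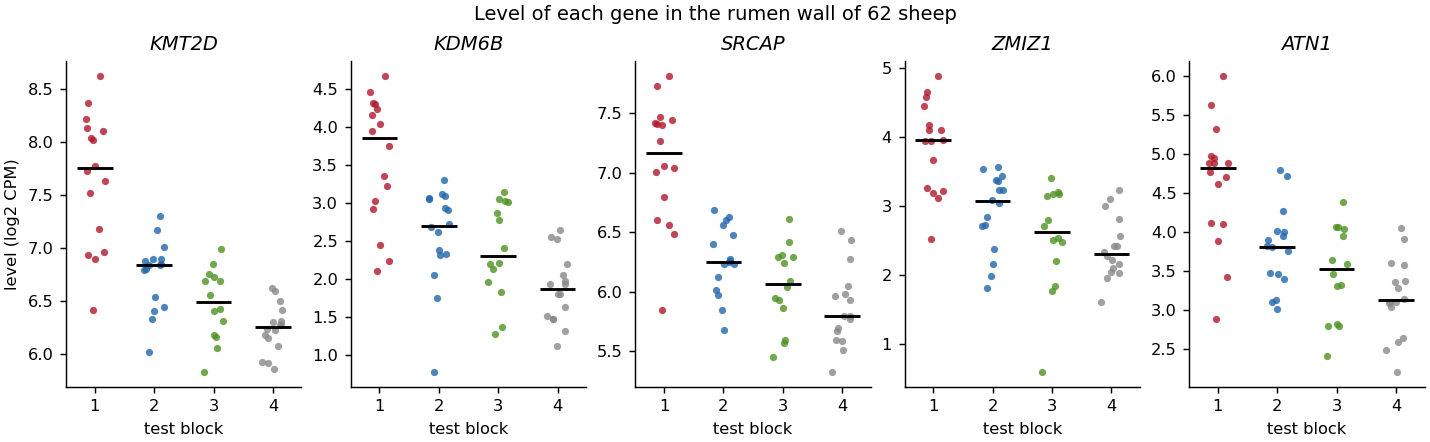
Level in log2 CPM (vertical axis, its own scale for each gene) of KMT2D, KDM6B, SRCAP, ZMIZ1 and ATN1 in each of the 62 sheep, by test block (horizontal axis); points are sheep and black lines are block medians. Each gene has its highest median in block 1, for example 7.75 for KMT2D, and a lower median in each block that follows.

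The order of the blocks was the same for every one of the 5 genes. The median of KMT2D was 7.75, 6.83, 6.49 and 6.25 log2 CPM in blocks 1, 2, 3 and 4. For KDM6B the medians were 3.85, 2.71, 2.31 and 1.87, and for SRCAP 7.16, 6.25, 6.07 and 5.80. ZMIZ1 had medians of 3.96, 3.07, 2.63 and 2.30, and ATN1 of 4.83, 3.81, 3.53 and 3.13. Medians in this order were found in 1265 of the 16011 genes (7.9%). The mean of block 1 exceeded that of block 2 by 0.82 (SRCAP) to 1.00 (KDM6B) log2 units, more than the SD of either block for each gene. Blocks 3 and 2, and blocks 4 and 3, did not differ beyond the larger of their SDs for any of the 5 genes. Block 4 lay below block 2 by more than either SD for 4 of them, and not for ZMIZ1.

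The difference of means between block 1 and blocks 2–4 was about the same size for all 5 genes. It was 1.17 log2 units for KMT2D (SE 0.165), a 2.25-fold higher level in block 1. KDM6B differed by 1.31 log2 units (SE 0.228, 2.47-fold), ZMIZ1 by 1.25 (SE 0.187, 2.38-fold), ATN1 by 1.15 (SE 0.216, 2.22-fold) and SRCAP by 1.02 (SE 0.140, 2.03-fold). These SEs take the spread of each group by itself, because the genes spread more in block 1: the SD of KMT2D was 0.624 in block 1 and 0.363 in blocks 2–4. In the limma fit over all genes, 2755 of 16011 genes (17.2%) were higher in block 1 at an adjusted *p* under 0.05, and all 5 genes were among them. Since the genes were chosen with this contrast known, nothing is read from that count. The median difference of all genes was -0.0071 log2 units, and the 5 genes lay between percentiles 98.9 and 99.7.

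Within block 1 the sheep were not alike. Of the 16 sheep, 12 lay above every sheep of blocks 2–4 for SRCAP, 11 for KMT2D, 11 for ZMIZ1, 10 for KDM6B and 8 for ATN1. At least 8 such sheep were found for 381 of all genes (2.38%). The same animals recurred, since 7 sheep of block 1 lay above all of blocks 2–4 for each of the 5 genes and 3 did so for none. Sheep oz171 was the highest for all of them, at 8.62 log2 CPM for KMT2D and 6.005 for ATN1. Sheep oz166 lay lowest in block 1 for each gene, at 6.41 for KMT2D and 2.90 for ATN1, below the median of blocks 2–4 for every one of them.

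The decline after block 1 was smaller. From means over sheep, KMT2D was 6.24 log2 CPM in block 4 and 6.75 in block 2, a difference of -0.51 (SE 0.0997), with each of the 16 sheep of block 4 under the block 2 median. KDM6B was 1.88 in block 4 and 2.57 in block 2 (-0.70, SE 0.195), again with each of the 16 sheep under that median. ATN1 differed by -0.63 (SE 0.181), ZMIZ1 by -0.51 (SE 0.180) and SRCAP by -0.40 (SE 0.109). This comparison was added after the levels by block had been seen. The limma fit over all genes called 3 genes (0.0187%) lower in block 4 than in block 2, KMT2D among them, and none of the other 4 genes. At an unadjusted *p* under 0.05 it had 913 genes. Since the 5 genes were chosen with their block levels known, nothing is read from the call of KMT2D.

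The levels of the 5 genes went together over the sheep. Over the 62 sheep Pearson's *r* was 0.811 for KDM6B with ATN1, the lowest of the 10 pairs, and 0.932 for KMT2D with SRCAP, the highest, and Spearman's rho was 0.786 to 0.890. With block means removed, *r* was 0.641 to 0.838. The pairs were closest in block 1, where the levels also spread most, with *r* of 0.826 to 0.957 (*n* = 16). Block 2 gave 0.651 to 0.817 (*n* = 16), block 3 gave 0.406 to 0.904 (*n* = 14) and block 4 gave 0.0066, for KDM6B with ATN1, to 0.675 (*n* = 16). Depth, normalization and tissue make-up are shared by all genes of a library, so each *r* is a description. The differences between genes moved less between blocks than the levels did. The smallest shift of the 10 pairs was in KMT2D minus ATN1. It was 3.02 ± 0.31 log2 units in block 1 (SD, *n* = 16) and 3.01 ± 0.43 in blocks 2–4 (SD, *n* = 46). SRCAP minus ZMIZ1 shifted by -0.23 in block 1 (SE 0.0845) and KMT2D minus SRCAP by 0.15 (SE 0.062). The largest shift of the 10 pairs was in KDM6B minus SRCAP, 0.28 log2 units higher in block 1 (SE 0.144).

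**Figure D2:**
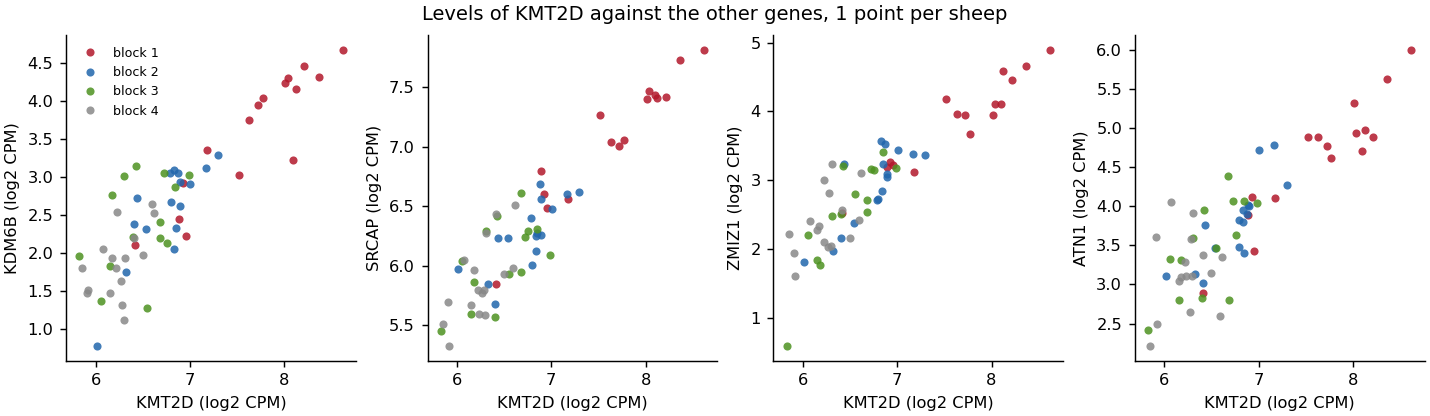
KMT2D (horizontal axis, log2 CPM) against KDM6B, SRCAP, ZMIZ1 and ATN1 (vertical axes, log2 CPM), with 1 point per sheep coloured by test block. Most sheep of block 1 lie towards the upper right of each panel, while 3 of its sheep exceed all of blocks 2–4 for none of the genes. The tightest panel is SRCAP (*r* = 0.932 over 62 sheep).

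The genes most like them over the 62 sheep were then listed. Symbols were at hand for 1211 of the 16011 genes, so the likest genes are those with a symbol. KMT2D was closest to KMT2C, its sister methyltransferase (*r* = 0.963), then to BCL9L, a coactivator of Wnt signaling (0.947), KMT2A, another H3K4 methyltransferase (0.944), the splicing protein SRRM2 (0.943) and the remodeler EP400 (0.941). These were also the 5 closest with block means removed (*r* = 0.866 to 0.912). SRCAP was closest to the acetyltransferase EP300 (*r* = 0.965), then ARID1A, a subunit of SWI/SNF remodelers (0.959), EP400 (0.947), MED12 of Mediator (0.943) and SRRM2 (0.940). KDM6B was closest to the RNA-binding gene ATXN2L (*r* = 0.894), then ARID1A (0.892), KMT2A (0.891), PRRC2A (0.886) and PRRC2C (0.883). ZMIZ1 was closest to the zinc finger gene HIVEP1 (*r* = 0.920), then KMT2A (0.917), ATXN2L (0.913), the kinase WNK1 (0.911) and BCL9L (0.909). ATN1 was closest to BCL9L (*r* = 0.929), then DVL3, another Wnt pathway gene (0.921), ZFHX3 (0.921), ANKRD52 (0.914) and ARID1A (0.912).

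The likeness was shared with many genes beyond the group. Above *r* = 0.8 stood 201 of 16010 other genes for KMT2D, 89 for KDM6B, 219 for SRCAP, 165 for ZMIZ1 and 201 for ATN1. With block means removed, these counts were 38, 0, 40, 10 and 33. Among all genes ranked by likeness to one of the 5, the nearest of the other 4 stood at ranks 6 to 10 and the farthest at ranks 68 to 166, against ranks 9 to 25 and 84 to 360 with block means removed. At the other end, named after their values were seen, PPIB, a folding enzyme of the secretory pathway, had *r* = -0.826 with KMT2D and -0.847 with SRCAP, and LAPTM4A, a lysosomal membrane gene, had -0.833 and -0.882. The ribosomal protein gene RPS3 had *r* = -0.788 with KDM6B.

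Other chromatin genes were counted from lists by role. The lists hold 187 symbols, of which 63 could be matched to a row, and the symbols come from gene tables that the study drew from these libraries, so the counts are no independent evidence. Matches were found for 6 of 19 H3K4 symbols, 9 of 27 other histone methyltransferases, 4 of 18 demethylases and 14 of 48 remodelers. For acetylation and corepression they were 18 of 45, for DNA methylation 4 of 11, for Mediator and elongation 5 of 12 and for partners of ZMIZ1 3 of 8. A symbol without a match may still be among the 16011 genes. Of the 63 genes, 59 were higher and 1 lower in block 1 than in blocks 2–4 at an adjusted *p* under 0.05 (limma, Benjamini-Hochberg over all genes), beside 17.2% of all genes higher. Their median difference was 0.47 log2 units, against -0.0071 for all genes, and 3087 of all genes (19.3%) were lower in block 1. The median of the 5 genes, chosen with this contrast known, was 1.17. Fewer were called higher with a tissue mean in the fit. They were 45 of 63 with the contractile mean held constant (median difference 0.38). With the mean of the study's muscle list they were 36 (0.25), and with the epithelium mean 35 (0.27). Over all 16011 genes, the number called higher went from 2755 to 1806, 1180 and 781 in the same fits. Of the 63, 39 (61.9%) stand in the muscle gene list of the study, as do KMT2D, SRCAP and ATN1, beside 4.04% of all genes and 51.2% of the genes with a symbol. The mean of that list was freed of the 5 genes only. The fit with it therefore adjusts these 39 regulators for a mean that they are part of.

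The H3K4 methyltransferase complexes, the group of KMT2D, had the largest median difference of the lists (0.95 log2 units). All 6 matched genes of this list rose in block 1, SETD1B by 1.13 (SE 0.15), KMT2A by 1.03 (SE 0.14), KMT2C by 0.84 (SE 0.10) and HCFC2 by 0.26 (SE 0.07) log2 units (limma adjusted *p* of HCFC2 0.0023). The SEs of listed genes are from limma, which pools the spread of both groups (0.124 for KMT2D, against 0.165 above). Of 9 other histone methyltransferases 8 rose, among them the muscle methyltransferase SMYD1 (0.85, SE 0.20), ASH1L (0.54, SE 0.08), the H3K36 methyltransferase SETD2 (0.32, SE 0.05) and the arginine methyltransferase CARM1 (0.24, SE 0.08, limma adjusted *p* 0.013). The 4 matched histone demethylases all rose: KDM3B by 0.34 (SE 0.06), PHF2 by 0.29 (SE 0.07), JMJD1C by 0.20 (SE 0.05) and KDM2A by 0.15 (SE 0.05, limma adjusted *p* 0.011). KDM6B, of the same family, was chosen with its block values known, so its size is not set against theirs.

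Among 14 chromatin remodelers, the group of SRCAP, 13 rose in block 1. ARID1A (0.96, SE 0.12) and EP400 (0.88, SE 0.11), an ATPase related to SRCAP, had the largest differences, and CHD3 (0.33, SE 0.12) and SMARCA2 (0.30, SE 0.09) the smallest. Of 18 genes of acetylation and corepression, with the ATN1 relative RERE among them, 16 rose, from EP300 (1.01, SE 0.13) and GATAD2B (0.82, SE 0.12) down to ATXN1L (0.18, SE 0.07). The histone deacetylase HDAC1 fell by 0.35 (SE 0.06, limma adjusted *p* 9.9e-06). All 4 matched genes of DNA methylation rose, with MBD5 at 0.60 (SE 0.17), TET3 at 0.55 (SE 0.13), TET1 at 0.47 (SE 0.16) and TET2 at 0.47 (SE 0.08). All 5 of Mediator and elongation rose, from MED12 (0.75, SE 0.09) and AFF1 (0.66, SE 0.11) to MED13L (0.33, SE 0.07) and AFF4 (0.22, SE 0.05). Of the partners of ZMIZ1, ZMIZ2 (0.30, SE 0.12) and RBPJ (0.15, SE 0.06, limma adjusted *p* 0.043), the DNA-binding factor of NOTCH signaling, rose. Of the genes named here, HCFC2, CARM1, CHD3, SMARCA2, ATXN1L, MBD5, TET1, ZMIZ2 and RBPJ were no longer called with any of the contractile, muscle list and epithelium means in the fit. SMYD1, KDM2A, PHF2 and AFF4 were not called with the muscle list or the epithelium mean, MED13L was not with the muscle list, and CHD3, KDM2A, ZMIZ2 and RBPJ were not with log2 depth. SMYD1 differed by 0.38 log2 units (SE 0.14) with the contractile mean held constant.

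**Figure D3:**
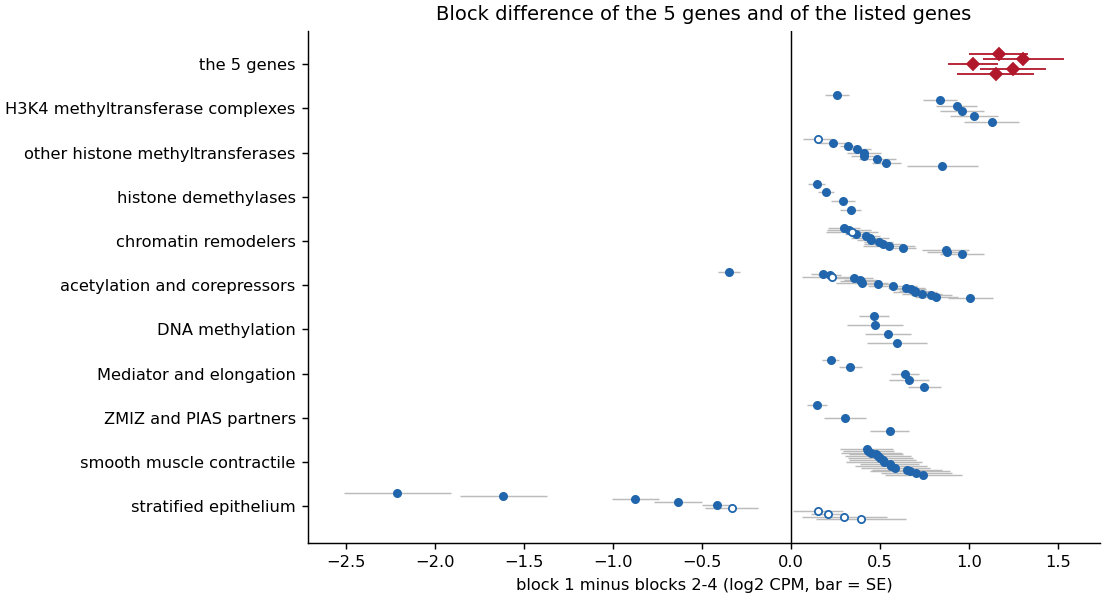
Difference of log2 CPM, block 1 minus blocks 2–4 (horizontal axis), for the 5 genes (red diamonds, from the top KMT2D, KDM6B, SRCAP, ZMIZ1 and ATN1) and for the genes of each list (circles, filled where the limma adjusted *p* is under 0.05). Bars are SE, from the spread of each group by itself for the 5 genes and from limma, which pools the groups, for the lists. The 5 genes lie between 1.02 and 1.31, a range in which SETD1B (1.13) and KMT2A (1.03) are the regulators of the lists, and HDAC1 at -0.35 is the one chromatin gene that fell.

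The make-up of the samples moved with block 1 as well. All 15 contractile genes of smooth muscle were higher in block 1, by 0.43 to 0.75 log2 units, and their summed level was 15695 to 82946 CPM in block 1 and 11766 to 71773 CPM in blocks 2–4. Of the 10 epithelial genes 5 fell, led by LIPN (-2.21, SE 0.30) and KRT78 (-1.62, SE 0.24) of the cornified layers. The other 5 were not called, and the highest difference in this list was 0.39. With the contractile mean held constant, 5 of the 10 were called lower and 1 higher. The summed level of the 10 epithelial genes was 3473 to 17704 CPM in block 1 and 8567 to 15821 CPM in blocks 2–4. Of the other lists, 6 of 9 fibroblast and matrix genes and 3 of 7 proliferation genes rose, with MKI67 at 1.28 (SE 0.15), 3 of 3 interferon genes fell, and 0 of 4 mitochondrial transcripts passed the test in limma (also 0 at an unadjusted *p* under 0.05). With the contractile mean held constant, the 5 genes differed by 0.96 to 1.26 log2 units between block 1 and blocks 2–4. With the mean of the study's muscle list, freed of the 5 genes, they differed by 0.67 to 1.01, with the epithelium mean by 0.76 to 0.90, and with log2 depth by 0.98 to 1.25. ATN1 moved most, to 0.67 (SE 0.17) with the muscle list held constant. Whether epithelium or muscle content plays a part in the remaining difference was not tested.

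Over single sheep, the 5 genes were low where the mean of the 10 epithelial genes was high. The genes of that mean did not move alike, with block 1 differences from -2.21 to 0.39 log2 units. Their *r* with the epithelium mean was -0.69 for KMT2D, -0.65 for SRCAP, -0.64 for KDM6B, -0.63 for ATN1 and -0.60 for ZMIZ1 (*n* = 62). Without the 2 sheep farthest from its median, these values were -0.59 to -0.51. Within block 1 the *r* was -0.77 to -0.66, whereas over blocks 2–4 with block means removed it was -0.33 to -0.25. The contractile mean had *r* = 0.29 (KDM6B) to 0.46 (ATN1) over all sheep and 0.07 (KMT2D) to 0.35 (ATN1) with block means removed. The mean of the study's muscle list, without the 5 genes, had *r* = 0.54 to 0.70 over all sheep, 0.33 to 0.60 with block means removed and 0.63 to 0.74 within block 1. That list was drawn by the study from correlations that include these libraries. The 4 mitochondrial transcripts behaved otherwise: their mean had *r* = 0.43 to 0.56 with the 5 genes over all sheep and 0.50 to 0.61 with block means removed. The normalization factor of the library had *r* = 0.57 to 0.65 (0.45 to 0.59 with block means removed) and the log2 of assigned reads -0.46 to -0.27 (-0.34 to -0.07), and the part of these library measures was not tested.

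**Figure D4:**
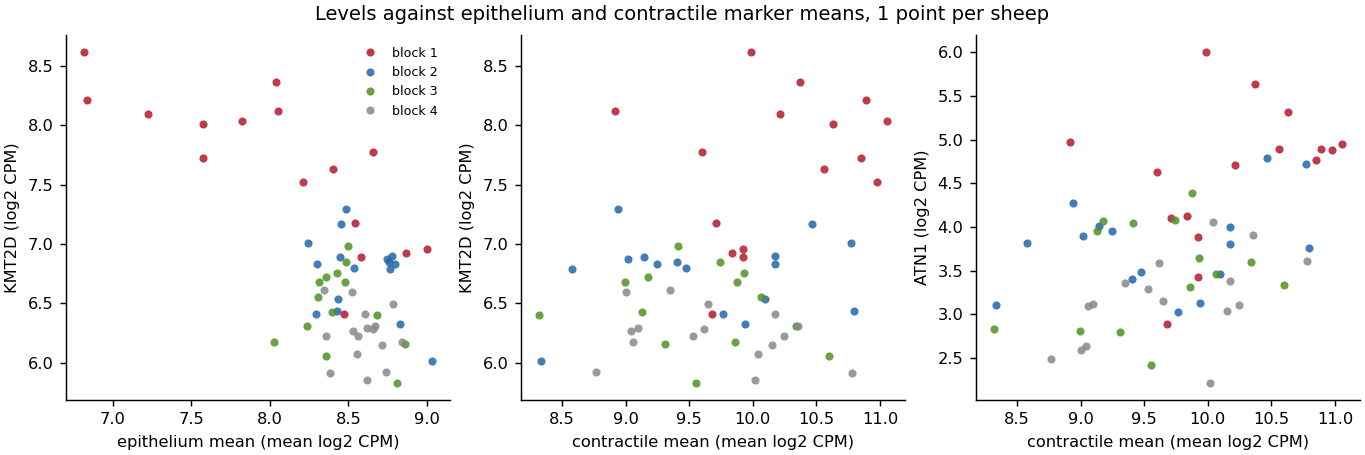
KMT2D against the epithelium mean, KMT2D against the contractile mean and ATN1 against the contractile mean (all in log2 CPM), with 1 point per sheep coloured by test block. Sheep of block 1 with a low epithelium mean have the highest KMT2D, while the contractile mean orders KMT2D weakly (*r* = 0.31) and ATN1 more closely (*r* = 0.46).

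A slope on the contractile mean was fitted for every gene to set muscle content beside these levels. The slope was 0.56 log2 units per log2 unit for ATN1 (SE 0.14), 0.44 for ZMIZ1 (SE 0.15), 0.39 for KDM6B (SE 0.16), 0.35 for SRCAP (SE 0.10) and 0.31 for KMT2D (SE 0.12). All 5 genes were among the 3477 genes (21.7%) with a positive slope at an adjusted *p* under 0.05, from which nothing is read. On the mean of the study's muscle list, which spreads less over sheep (SD 0.376 against 0.669), the slopes were 1.53 for ATN1, 1.29 for ZMIZ1, 1.29 for KDM6B, 1.01 for SRCAP and 1.01 for KMT2D. With block in the fit of the contractile mean the slopes were 0.33 for ATN1 and 0.04 to 0.16 for the other 4. That fit called 2924 of 16011 genes with a positive slope, ATN1 among them and none of the other 4. Nothing is read from the call of ATN1. Of the 63 listed regulators, 48 had a positive and 1 a negative slope, with a median of 0.27 against -0.02 for all genes. The steepest were SMYD1 (0.95, SE 0.09), SMARCD3 (0.76, SE 0.03), TET1 (0.73, SE 0.07) and SMARCA1 (0.72, SE 0.06), and the negative one was HDAC1 (-0.31, SE 0.03, limma adjusted *p* 3.0e-12). Other methyltransferases had 0.43 (SETD7), 0.25 (ASH1L) and 0.10 (SETD2), the demethylases PHF2 and KDM3B 0.22 and 0.19, and the remodelers SMARCD1 and CHD8 0.24 and 0.13. HDAC9 had 0.63, KAT6B 0.55, BRD2 0.12, MBD5 0.62, MED12 0.30, MED13L 0.22, AFF1 0.22, AFF4 0.14 and RBPJ 0.16. The H3K4 methyltransferase list had a median slope of 0.32, with all 6 genes called, from NCOA6 (0.36, SE 0.10) and KMT2A (0.36, SE 0.11) to HCFC2 (0.28, SE 0.04) and KMT2C (0.24, SE 0.09).

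Methane and intake were then set beside the 5 genes. CH4 yield, the methane produced per kg of dry matter eaten, had *r* = -0.32 (KDM6B) to -0.23 (ATN1) with the 5 genes over 61 sheep, and rho was -0.33 to -0.27. Without the 2 sheep farthest from the median yield *r* was -0.28 to -0.23. Yield itself differed between blocks, with medians of 19.0, 19.1, 19.7 and 21.2 g/kg in blocks 1, 2, 3 and 4. With block means removed, *r* was -0.08 to 0.04, and within blocks it spanned -0.09 to 0.08 (block 1), -0.12 to 0.21 (block 2), -0.07 to 0.14 (block 3) and -0.31 to 0.09 (block 4). The relation over all sheep did not hold within blocks. The fitted slopes were -0.087 (KDM6B, SE 0.032) to -0.056 (SRCAP, SE 0.022) log2 units per g/kg, between percentiles 0.862 and 3.45 of all genes. In limma 0 of 16011 genes (0%) passed an adjusted *p* of 0.05 for CH4 yield and 1521 had an unadjusted *p* under it.

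DMI, the dry matter intake, showed the reverse sign and the same dependence on block. Its *r* was 0.19 (ATN1) to 0.33 (KMT2D) over 61 sheep, 0.13 to 0.26 without the 2 farthest sheep, and -0.11 to 0.06 with block means removed. Median DMI was 1.42, 1.24, 1.12 and 1.03 kg/d in blocks 1, 2, 3 and 4, in the same order as the medians of the 5 genes. Within blocks *r* spanned 0.09 to 0.17 (block 1), 0.04 to 0.25 (block 2), -0.63 to -0.30 (block 3, *n* = 13) and -0.33 to 0.29 (block 4). The limma fit called 0 genes for DMI (0%), with 1899 at an unadjusted *p* under 0.05.

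CH4 production (g/d) and live weight were barely related to the 5 genes. For CH4 production *r* was 0.05 (ATN1) to 0.21 (KMT2D) over 62 sheep, 0.04 to 0.17 without the 2 farthest sheep and -0.12 to 0.07 with block means removed. Within blocks it spanned 0.02 to 0.11 (block 1), -0.08 to 0.29 (block 2), -0.62 to -0.31 (block 3) and -0.42 to 0.33 (block 4). For live weight *r* was -0.12 (KDM6B) to 0.02 (ZMIZ1) over all sheep and -0.07 to 0.10 with block means removed. Over all genes the fit called 2 genes (0.0125%) for CH4 production and 3 (0.0187%) for live weight, and none of the 5 genes or of the 63 listed regulators was called for any of the 4 traits. At an unadjusted *p* under 0.05 the limma fits had 33 of the 63 regulators for CH4 yield, 15 for DMI, 1 for CH4 production and 1 for live weight. Of all 16011 genes they had 1521 for CH4 yield, 1899 for DMI, 1449 for CH4 production and 1318 for live weight. With block in the fit, the counts over all genes were 514 for CH4 yield and 1029 for DMI, and the regulators were not counted there.

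**Figure D5:**
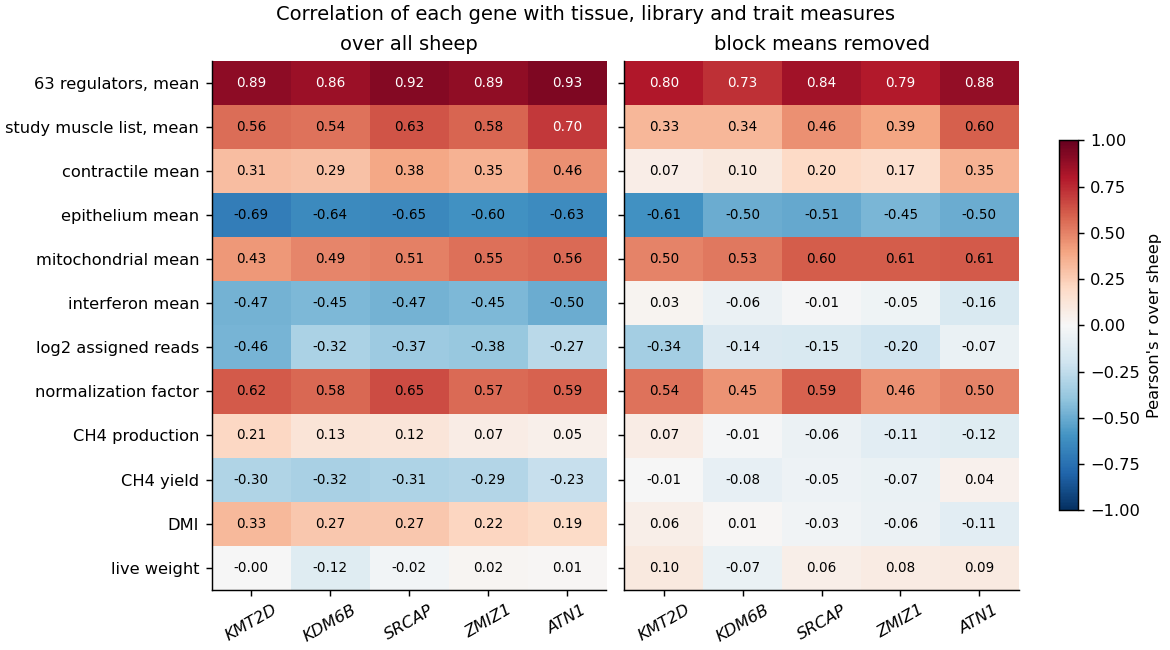
Pearson's *r* of each gene (columns) with tissue, library and trait measures (rows), over all sheep on the left and with block means removed on the right, from -1 (blue) to 1 (red). With block means removed the values with CH4 yield go to between -0.08 and 0.04, while those with the mean of the 63 regulators keep to 0.73 to 0.88.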

How the data were processed

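Whole-wall rumen samples of 62 sheep were sequenced by the authors as stranded, ribosomal RNA depleted, paired-end libraries. They used TopHat with Bowtie2 for alignment against sheep models from Ensembl and HTSeq for counting, and the submitters' processing notes list edgeR and limma besides. The authors deposited log2 CPM values from voom for 16011 genes, scaled to a library size with a normalization factor and an offset of 0.5 reads. Whole reads could be recovered from 100% of the values (tolerance 0.01 reads).

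Fits on the deposited log2 values took all genes together (R 4.3.3, limma 3.58.1, with an empirical Bayes variance trend), with Benjamini-Hochberg adjustment at 0.05. The fits were also run on simulated data, drawn gene by gene with the same SD in all sheep. That setting cannot speak to the larger spread in block 1 or to genes that go together. Limma pools the spread of both groups, which understates the error of genes with a larger SD in block 1. *p* takes the sheep as independent, and sire is not in the labels. Sheep oz151 (DMI of 0.0795 kg/d, next lowest 0.376) was left out of CH4 yield and DMI. The genes and lists were chosen with earlier results of these data known. Besides the 5 genes, the text names in each regulator list the 2 highest and 2 lowest estimates past the threshold, and for each gene the 5 likest genes with a symbol. One gene that this rule would name is not reported here. Symbols came from the study's tables. Endothelium and leukocyte markers (0 of 5 matched each) were not checked. Alternatives were a filter of 3 CPM in all libraries, an offset of 2 reads, covariates, other scalings and sheep left out. Descriptions and plots used Python 3.11.15 with numpy 2.4.6, pandas 2.3.3 and matplotlib 3.10.9. NZ libraries were not analysed here.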

Additional observations from a re-analysis of the deposited data

How the results depend on the processing

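The differences of the 5 genes between block 1 and blocks 2–4 and their slopes on the traits and the contractile mean were recomputed under the alternatives, giving 148 values. The block 1 difference ranged from 0.67 (ATN1, muscle list held constant) to 1.38 (KDM6B, no normalization factor). Block 1 differed from blocks 2–4 in 5842 genes, in 3748 with the contractile mean held constant, in 2325 with the study's muscle list and in 1476 with the epithelium mean. Without the normalization factor 3798 genes were higher and 2059 lower, against 2755 and 3087. For CH4 production 2 genes were called, 0 with the filter at 3 CPM, 16 with the contractile mean and 4 with block. For CH4 yield 0 genes were called, 2 with the contractile mean, 2 with sheep oz151 kept and 18 without the sheep of the highest remaining yield. For DMI 0 genes were called, and 3 with the contractile mean. For live weight 3 were called, 1 with the filter, 41 with the contractile mean and 0 with block. The cause of these changes was not tested. The slopes of the 5 genes on CH4 yield went to between -0.0021 and 0.0017 with oz151 kept. With block in the fit, slopes changed sign for 4 of the 5 genes on CH4 production, for ATN1 on CH4 yield, for SRCAP, ZMIZ1 and ATN1 on DMI and for KMT2D and SRCAP on live weight. The study's muscle list and epithelium covariates, depth, both scalings, voom weights on the recovered reads and the comparison of block 4 with block 2 were chosen after seeing the data. A count model on the recovered reads was planned and was not run. No paired analysis was possible because each block held different sheep, with 1 library per sheep. KDM6B and ZMIZ1 fell below 3 CPM in some libraries, so they leave the filtered fits, and at 11 or 12 reads in their lowest libraries counting error is large.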
